A study of Mus musculus with 6 samples.

Results

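E2F transcription factors and the retinoblastoma pocket proteins were examined in mouse embryonic fibroblasts, cells grown from the connective tissue of mouse embryos. The members were chosen by gene symbol, as every probe set whose platform annotation names exactly 1 of 10 genes. Of these, 9 genes were measured, by 13 probe sets (of 12393 genes and 20380 probe sets named with 1 gene), and E2f2 was not analysed here. The groups were wild-type fibroblasts starved for 6 h (3 arrays) and wild-type fibroblasts in normal medium, called control (3 arrays). The labels name no withdrawn nutrient or serum component, no mouse strain and no embryonic age. Array titles number biological replicates but do not state separate cultures, so p-values reflect the spread among these 6 arrays alone, which could be technical. The question put to the arrays is how transcript levels of starved cells compare with those of fed cells.

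Pocket proteins hold cells out of division by binding E2F factors at the promoters of genes needed for DNA synthesis and mitosis. Cyclin-dependent kinases phosphorylate the pocket proteins when growth factors and nutrients allow, which frees activating E2Fs, and the pocket proteins Rbl1 and Rbl2 also join the MuvB proteins in the DREAM complex, which silences cell cycle genes in resting fibroblasts. E2f1 and E2f3 are classed as activators, E2f4 and E2f5 as repressors that work through pocket proteins, E2f6 as a repressor that works with Polycomb-type proteins instead, and E2f8 as an atypical repressor that binds DNA without a DP partner.

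Promoter sequences were available for 6 of the 9 genes in RefSeq windows of GRCm38.p6, each running from 250 bases before to 50 after a transcription start. Rb1, E2f4 and E2f5 had no window. The windows of Rbl1, Rbl2, E2f8 and the first of the 2 windows of E2f3 are shown because these genes passed the test below and their starts differ in the letters they hold. Capitals mark matches on either strand to an E2F-type motif (TTTCCCGC, TTTCGCGC, TTTGCCGC or TTTGGCGC) or to the cell cycle homology motif CHR (TTTGAA). Sequences run 5′ to 3′ along the gene.
Rbl1 (chr2:157204485-157204784, minus strand): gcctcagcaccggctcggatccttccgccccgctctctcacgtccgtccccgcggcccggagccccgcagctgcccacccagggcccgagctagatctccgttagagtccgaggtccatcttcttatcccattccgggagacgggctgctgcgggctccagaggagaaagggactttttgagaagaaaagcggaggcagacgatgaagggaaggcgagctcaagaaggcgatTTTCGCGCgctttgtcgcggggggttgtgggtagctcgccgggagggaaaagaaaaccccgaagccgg
Rbl2 (chr8:91069807-91070106, plus strand): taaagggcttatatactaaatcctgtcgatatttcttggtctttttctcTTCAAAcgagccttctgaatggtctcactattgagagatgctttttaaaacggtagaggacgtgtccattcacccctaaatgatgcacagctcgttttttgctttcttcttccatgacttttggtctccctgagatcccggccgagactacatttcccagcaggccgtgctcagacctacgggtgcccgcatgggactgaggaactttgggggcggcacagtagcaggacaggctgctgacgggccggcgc
E2f8 (chr7:48881547-48881846, minus strand): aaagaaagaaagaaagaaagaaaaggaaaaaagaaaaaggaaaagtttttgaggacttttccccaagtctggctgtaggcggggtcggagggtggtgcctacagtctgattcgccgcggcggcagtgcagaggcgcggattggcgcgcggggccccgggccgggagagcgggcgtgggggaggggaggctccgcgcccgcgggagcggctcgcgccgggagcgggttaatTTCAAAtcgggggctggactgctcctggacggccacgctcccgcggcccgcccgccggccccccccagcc
E2f3 (chr13:29986014-29986313, minus strand): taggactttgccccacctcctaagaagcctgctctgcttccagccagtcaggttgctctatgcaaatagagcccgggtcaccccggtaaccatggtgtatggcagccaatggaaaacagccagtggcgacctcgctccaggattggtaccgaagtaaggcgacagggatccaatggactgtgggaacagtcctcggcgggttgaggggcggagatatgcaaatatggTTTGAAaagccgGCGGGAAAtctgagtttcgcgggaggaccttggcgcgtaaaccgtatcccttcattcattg

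The E2F-type letters were found in 2 of the 7 windows of the family, against 2.26% of all 32851 promoter windows of the same length. The 7 windows held 50.7% to 78.7% G or C, against a median of 52.7% over all windows. The part of base content in these matches was not tested. In Rbl1 the E2F-type letters lay at bases -18 to -11 from the start (TTTCGCGC), and in the first window of E2f3 at -11 to -4 (TTTCCCGC on the other strand). The CHR letters were found in 17.9% of all windows. They lay at -20 to -15 in E2f8, at -23 to -18 in the first window of E2f3 and far from the start, at -201 to -196, in Rbl2. No window of the family held the FOXO-type letters TGTTTAC on either strand, which 3.65% of all windows held. The windows of E2f1 and E2f6 and the second window of E2f3 held none of these letters. The only E2f1 window surrounds a single annotated start, and whether this is the main start of the gene was not tested. Its lack of a match therefore does not describe other starts of E2f1, which were not searched. The motifs do not overlap each other in these windows, and a match describes the letters only.

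All 3 pocket protein genes were higher in starved fibroblasts, by 1.52-fold to 2.14-fold in the brightest probe set of each gene and by 2.79-fold in the dimmer probe set of Rbl1, whereas the E2F genes differed by small amounts in both directions. The size of the Rbl1 rise depended on the probe set, and Rbl1 lost its call under 1 scaling described below. E2f3 and E2f6 fell, and E2f8 rose slightly in the deposited scaling, with the opposite sign when arrays were centred on poly-A spike-ins. E2f1, E2f4 and E2f5 did not pass the test. In all, 4 of the 9 genes were called higher, against 22.1% of all genes, and 2 lower, against 22.0% of all genes. Calls rest on limma with Benjamini-Hochberg adjustment over all genes, at an adjusted p below 0.05, which called 44.1% of genes in either direction. The groups did not overlap for 7 of the 9 genes, against 54.0% of all genes. Values are RMA log2 array signals, and differences are starved minus control on that scale. Levels of different genes are not set against each other, since probe sets differ in brightness for the same amount of RNA. In such bulk samples a change in the share of cycling cells and a change in RNA per cell cannot be told apart.

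**Figure D1:**
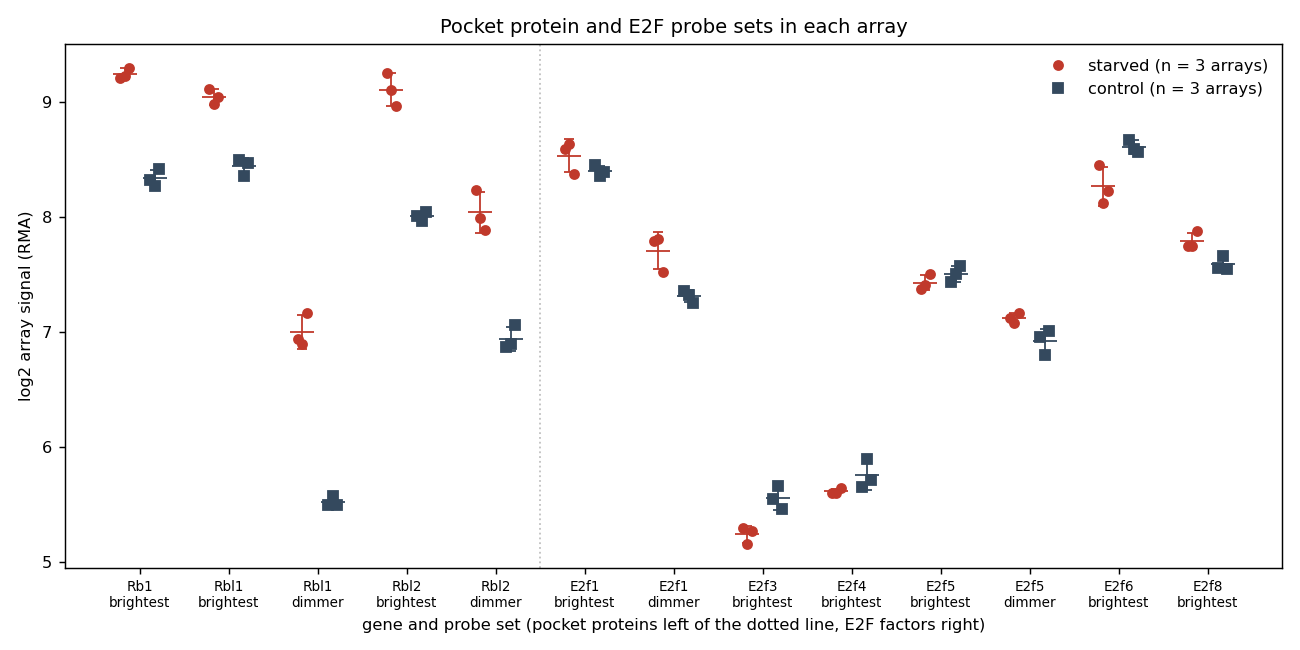
Log2 array signal (vertical axis) of the 13 probe sets of the family, by gene and probe set (horizontal axis). Points are single arrays, starved (circles) left of control (squares), and bars give the mean ± SD of 3 arrays. The starved arrays lie above the control arrays for all 5 pocket protein probe sets and below them for E2f3, E2f4 and E2f6.

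Rbl2 encodes p130, the pocket protein typical of resting cells. Its brighter probe set gave 9.25, 9.10 and 8.96 in starved arrays, against 8.00, 7.96 and 8.04 in control arrays. Every starved array lay above every control array, with the starved arrays more widely spread. The difference was 1.10 (SE 0.08, 2.14-fold, limma adjusted p = 5.11e-06). The dimmer probe set gave 8.23, 7.99 and 7.89 in starved arrays, against 6.87, 6.90 and 7.06 in control arrays. Both Rbl2 probe sets thus moved by the same amount (1.10 for the dimmer, SE 0.10, adjusted p = 3.89e-05 over all probe sets).

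Rb1 encodes the retinoblastoma protein itself, which restrains the activating E2Fs. It was measured at 9.21, 9.23 and 9.29 in starved arrays, against 8.32, 8.27 and 8.42 in control arrays. The groups were far apart relative to their spread (SD 0.046 in starved and 0.074 in control arrays). The difference was 0.91 (SE 0.07, 1.88-fold, limma adjusted p = 6.37e-06).

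Rbl1 encodes p107, a pocket protein whose own gene is a known E2F target. The brighter probe set gave 9.11, 8.98 and 9.04 in starved arrays, against 8.49, 8.35 and 8.47 in control arrays. The difference was 0.60 (SE 0.07, 1.52-fold, limma adjusted p = 0.000105), below those of Rbl2 and Rb1. The dimmer probe set gave 6.94, 6.89 and 7.16 in starved arrays, against 5.50, 5.57 and 5.49 in control arrays. Its difference was 1.48 (SE 0.09, 2.79-fold, adjusted p = 2.99e-06 over all probe sets). Both probe sets rose, but their 95% confidence intervals of the difference did not overlap (1.28 to 1.68 for the dimmer and 0.43 to 0.77 for the brighter, both in the fit over probe sets). With the mean of probe sets the difference of Rbl1 was 1.04, above that of Rb1 (0.91). Which transcripts of Rbl1 each probe set detects was not tested.

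At the same threshold, Rb1 and Rbl2 kept their call in all 16 alternative settings, with differences between 0.48 and 0.95 for Rb1 and between 0.67 and 1.17 for Rbl2. Rbl1 kept it in 15 of 16. With a log2 difference of at least 1 also required, Rbl2 was the pocket protein gene still called. Centring the arrays on the poly-A spike-ins, bacterial transcripts normally added to RNA in set amounts, left Rbl1 at 0.18 (95% CI -0.04 to 0.40, adjusted p = 0.127).

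E2f1, the activator most closely tied to entry into DNA synthesis, gave a mixed reading. The brighter probe set was at 8.59, 8.63 and 8.37 in starved arrays, against 8.45, 8.36 and 8.39 in control arrays. The groups overlapped, because starved replicate 3 lay among the control arrays. The difference was 0.13 (95% CI -0.06 to 0.32, limma adjusted p = 0.233). The dimmer probe set gave 7.79, 7.81 and 7.52 in starved arrays, against 7.36, 7.32 and 7.25 in control arrays. Here the groups did not overlap, and this probe set rose by 0.39 (SE 0.09, adjusted p = 0.00775 over all probe sets, of which 40.9% were called). Starved replicate 3 was the lowest starved array in both probe sets. Without it the brighter probe set passed (0.22, adjusted p = 0.0419), as did the mean of both probe sets in all 6 arrays (0.26, adjusted p = 0.0289). The poly-A centring turned its direction (-0.29, adjusted p = 0.0106).

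E2f3, the other activator measured, fell. It was at 5.30, 5.16 and 5.27 in starved arrays, against 5.55, 5.66 and 5.46 in control arrays. All starved arrays lay below all control arrays. Its mean signal stood at percentile 33.5 of all genes, toward the dim end. The difference was -0.32 (SE 0.08, limma adjusted p = 0.00859), which is a ratio of 0.803. RefSeq gives this gene 2 promoter windows, and 1 probe set reads it here.

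E2f4 and E2f5, the repressors that bind Rbl1 and Rbl2 in resting cells, did not pass. E2f4 was at 5.60, 5.60 and 5.64 in starved arrays, against 5.65, 5.90 and 5.71 in control arrays. The starved arrays were lower without overlap, but the control arrays were spread (difference -0.14, 95% CI -0.32 to 0.04, limma adjusted p = 0.188). The mean signal of E2f4 stood at percentile 36 of all genes, toward the dim end. The brighter E2f5 probe set was at 7.37, 7.41 and 7.50 in starved arrays, against 7.44, 7.50 and 7.58 in control arrays. Its groups overlapped (difference -0.08, 95% CI -0.24 to 0.09, adjusted p = 0.422). The dimmer E2f5 probe set pointed the other way, with 7.12, 7.07 and 7.16 in starved arrays, against 6.95, 6.80 and 7.00 in control arrays. It did not pass either (0.20, SE 0.08, adjusted p = 0.0711 over all probe sets), so the direction of E2f5 depended on the probe set.

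E2f6, the repressor that lacks a pocket-binding region, fell. It was at 8.45, 8.12 and 8.23 in starved arrays, against 8.67, 8.59 and 8.56 in control arrays. The groups did not overlap, with starved replicate 1 nearest to the control arrays. The difference was -0.34 (SE 0.09, limma adjusted p = 0.013), a ratio of 0.789. At the same threshold, the falls of E2f3 and E2f6 kept their call in every alternative setting that gave them a value, 15 for E2f3 and 16 for E2f6. E2f6 lost it at an adjusted p below 0.01, and both genes at a log2 difference of at least 1.

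E2f8, the atypical repressor, was at 7.74, 7.75 and 7.87 in starved arrays, against 7.56, 7.66 and 7.54 in control arrays. The groups did not overlap, yet the difference was only 0.20 (SE 0.07, 1.15-fold, limma adjusted p = 0.046). The call held in 6 of 16 alternative settings at the same threshold. Among other settings, it was lost with centring on array medians (0.15, adjusted p = 0.134) and without any 1 of starved replicates 2 and 3 and control replicates 1, 2 and 3 (0.16 to 0.24, adjusted p 0.0555 to 0.14). The poly-A centring turned its sign (-0.22, adjusted p = 0.0571).

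**Figure D2:**
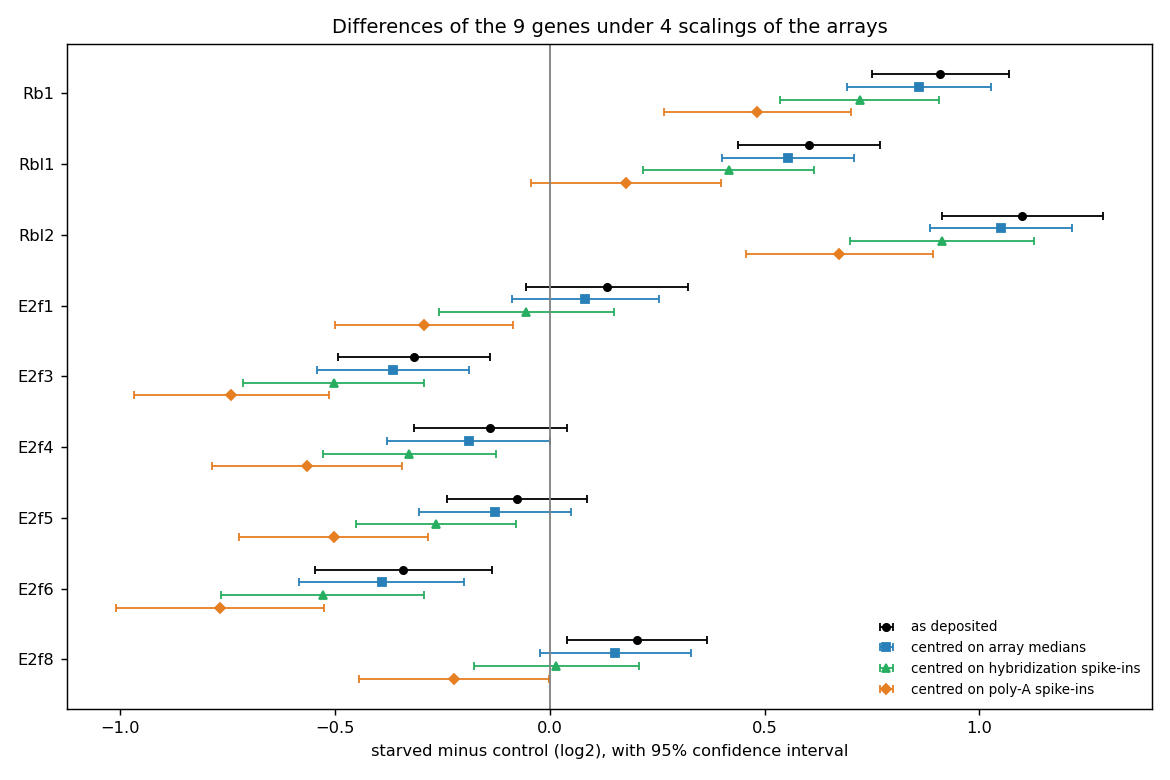
Difference starved minus control on the log2 scale (horizontal axis) with 95% confidence intervals for the 9 genes (vertical axis), for the deposited scaling and 3 centrings of the arrays. Rb1 and Rbl2 lie above 0 and E2f3 and E2f6 below 0 under all 4, while E2f1 and E2f8 lie on both sides of 0.

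The scaling of the arrays bears on every small difference in the family. The median difference of all genes was -0.048 as deposited, and -0.098, -0.235 and -0.474 with centring on array medians, on the hybridization spike-ins and on the poly-A spike-ins. The family had 4 genes called higher and 2 lower as deposited, 3 and 2 with array medians, 3 and 4 with the hybridization spike-ins, and 2 and 5 with the poly-A spike-ins. Over all genes the hybridization centring called 1673 higher and 6102 lower. The poly-A centring called 860 of all genes higher and 9321 lower, against 2735 and 2728 as deposited. It takes 0.426 off every difference, so any smaller rise named here turns its sign under it. In the family E2f1, E2f3, E2f4, E2f5 and E2f6 were then the genes called lower, and Rb1 and Rbl2 the genes called higher. A spike-in centring takes a single value off every gene of an array, and an error in that value therefore touches the whole array at once.

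The gene whose profile over the 6 arrays was most like that of Rbl2, the member with the smallest adjusted p, was Sap30l (Pearson r = 0.9999), followed by Man2a1 (0.9996) and Tgfbr2 (0.9992). Such likeness includes the difference between the groups, and 1552 genes had an r above 0.95 with Rbl2.

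Among the partners that complete E2F and pocket protein complexes, Tfdp1 fell and Lin37, Foxm1 and Lin9 rose. Tfdp1, a DP protein that pairs with E2f1 to E2f6 to bind DNA, was at 9.95, 9.68 and 9.96 in starved arrays, against 10.69, 10.77 and 10.77 in control arrays. It fell in every starved array, by 0.88 (SE 0.09, a ratio of 0.543, limma adjusted p = 3.09e-05). Of the MuvB proteins, Lin37 rose by 0.70 (7.65 ± 0.06 in starved and 6.95 ± 0.06 in control arrays, SD, n = 3 each, limma adjusted p = 3.19e-05). Foxm1, which takes the place of repressors on MuvB to activate mitotic genes, rose by 0.94 (8.67 ± 0.17 in starved and 7.74 ± 0.14 in control arrays, limma adjusted p = 5.87e-05). Mybl2, the other activating partner of MuvB, did not pass (0.02, adjusted p = 0.872). In all, 3 of 8 measured partners rose, with Lin9 (0.60) beside Lin37 and Foxm1, and 1 fell, so that 50% were called, near the 44.1% of all genes. The 4 that did not pass were Mybl2, Mybl1 (0.37), Rbbp4 (0.09) and Dyrk1a (-0.02). The reading of Dyrk1a depended on the probe set. A dimmer one was higher (0.76, limma adjusted p = 3.98e-05 over all probe sets), and another dimmer one did not pass (-0.14). The poly-A centring left 2 partners higher and 4 lower.

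The D and E cyclins, which start phosphorylation of pocket proteins, fell, as did Cdk4, the kinase partner of the D cyclins (-0.46), while cyclin A2 rose. Of the D and E cyclins, Ccnd3 fell by the least (-0.20, limma adjusted p = 0.0403). The CDK inhibitors went both ways, with Cdkn1a and Cdkn2d higher and Cdkn1c, the inhibitor p57, lower (-0.40, limma adjusted p = 0.0029). Of 19 measured cyclins, kinases, inhibitors and phosphatases 7 fell and 4 rose, 8 missed the threshold, and the median was -0.06, against -0.048 for all genes. Calls covered 57.9% of this list, against 44.1% of all genes. With the hybridization spike-ins 3 were higher and 10 lower, and with the poly-A spike-ins 2 and 13. Of these calls 23.1% and 13.3% were higher, against 21.5% and 8.4% over all genes. Ccne2, a cyclin partner of Cdk2 and a classical E2F target, was at 5.16, 5.51 and 5.44 in starved arrays, against 7.08, 7.16 and 7.12 in control arrays. This was the largest fall of the list (-1.75, SE 0.10, limma adjusted p = 6.49e-07), and Ccne1 (-1.45) and Ccnd1 (-1.24) fell too. Ccna2, the cyclin of S phase and G2, rose by 0.89 (11.52 ± 0.09 in starved and 10.64 ± 0.02 in control arrays, SD, n = 3 each, limma adjusted p = 7.66e-06). Cdkn1a, the CDK inhibitor p21, rose by 1.09 (11.90 ± 0.18 in starved and 10.81 ± 0.04 in control arrays, limma adjusted p = 9.99e-06). Cdkn1b, the inhibitor p27, did not pass (0.30, adjusted p = 0.0768). The other risen members were Cdkn2d, an inhibitor of Cdk4 and Cdk6 (0.54), and the phosphatase subunit Ppp1cc (0.21). The dimmer Ppp1cc probe set pointed the other way and did not pass (-0.12, limma adjusted p = 0.328 over all probe sets). Without starved replicate 1 the count of risen genes in this list was 7, and with array weights it was also 7. The count of fallen genes was 6 at an adjusted p below 0.01, which Ccnd3 missed, and 6 with any single array left out.

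**Figure D3:**
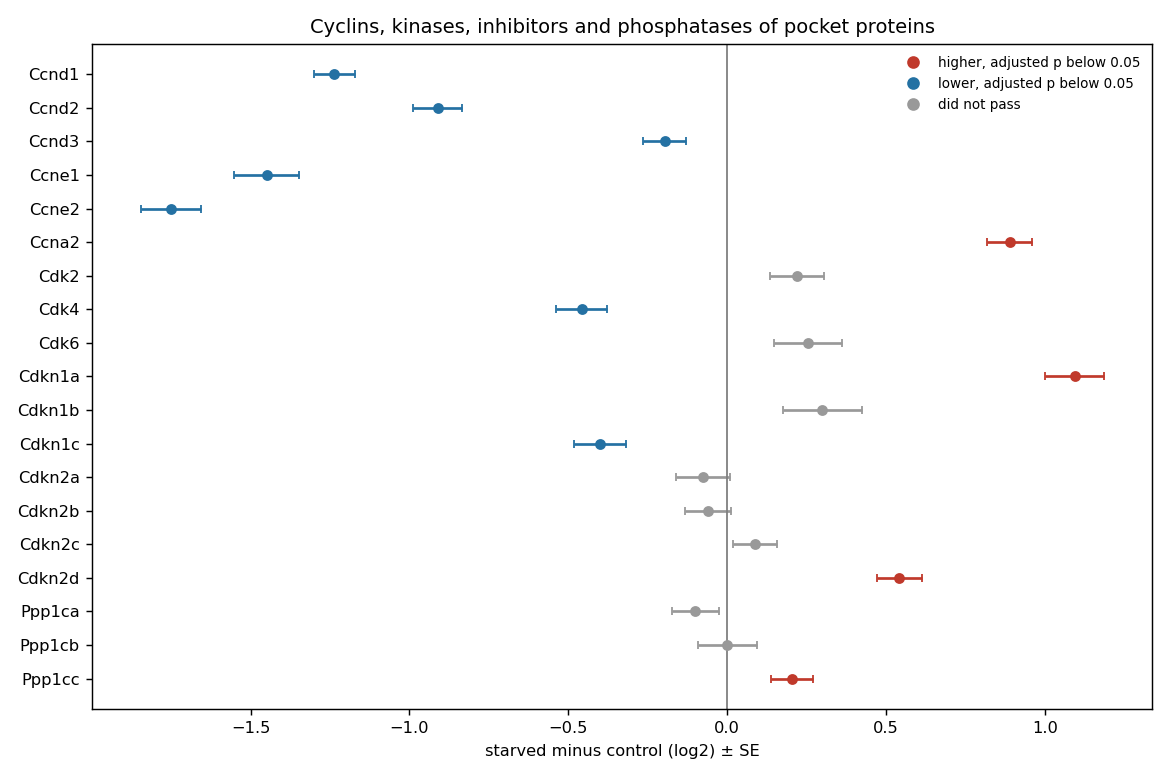
Difference starved minus control on the log2 scale ± SE (horizontal axis) for the 19 measured cyclins, kinases, inhibitors and phosphatases that act on pocket proteins (vertical axis), as deposited. Ccne2, Ccne1 and Ccnd1 lie below -1, and Cdkn1a lies above 1.

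Of 22 measured corepressors that work with Rb1 or E2f6, 6 rose and 5 fell, 11 missed the threshold, and the median was 0.04. The share called was 50%, near the 44.1% of all genes. With the hybridization spike-ins 4 were higher and 8 lower, and with the poly-A spike-ins 2 and 15. Of these calls 33.3% and 11.8% were higher, against 21.5% and 8.4% over all genes. Kdm5a, a histone demethylase that binds Rb1, rose by 0.77 (limma adjusted p = 0.000131) and Arid4b, a subunit of a histone deacetylase complex, by 0.58 (adjusted p = 0.000202). The dimmer Arid4b probe sets gave 0.49, which passed over all probe sets, and 0.34, 0.08 and 0.05, which did not pass. The others that rose were Sin3a (0.69), Rnf2 (0.46), Epc1 (0.40) and Mga (0.38). The dimmer Rnf2 probe sets gave 0.52, which passed over all probe sets, and 0.48, 0.13 and -0.03, which did not pass. The dimmer Mga probe set pointed the other way and did not pass (-0.14, limma adjusted p = 0.291 over all probe sets). Max, which sits with E2f6 in a Polycomb-type complex and also serves Myc, fell by 0.88 (7.87 ± 0.04 in starved and 8.76 ± 0.06 in control arrays, SD, n = 3 each, limma adjusted p = 6.04e-06). Ctbp2, a corepressor, fell by 0.63 (adjusted p = 0.000252), and the others that fell were the histone deacetylase Hdac1 (-0.41), Smarca2 (-0.33) and Yaf2 (-0.25). Without starved replicate 2 the fallen genes numbered 3, as they did without control replicate 3.

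Target genes of G1/S went both ways, and nearly all those of G2/M rose. Of 43 measured G1/S targets of E2F, 17 rose and 15 fell, 11 missed the threshold, and the median was 0.12. Calls covered 74.4% of them, against 44.1% of all genes. With the hybridization spike-ins 12 were higher and 17 lower, and with the poly-A spike-ins 5 and 24 (median -0.30). Of these calls 41.4% and 17.2% were higher, against 21.5% and 8.4% over all genes. Ezh2, a Polycomb methyltransferase, rose by 1.06 (limma adjusted p = 2.17e-06) and Pole, a replicative DNA polymerase, by 1.02 (adjusted p = 8.15e-06). Cdc6, which loads the replicative helicase, fell by 1.23 (6.66 ± 0.12 in starved and 7.89 ± 0.08 in control arrays, SD, n = 3 each, adjusted p = 2.48e-06), beside Ccne2 and Ccne1, which the list shares with the cyclins above.

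Of 39 measured G2/M targets of DREAM, 38 rose and 0 fell by limma (0 also at an unadjusted p below 0.05), and Tpx2, a spindle assembly factor, did not pass (-0.02, adjusted p = 0.846). The share called was 97.4%, against 44.1% of all genes, and the list median was 0.72. Ndc80, a kinetochore protein, was at 10.05, 10.05 and 10.09 in starved arrays, against 8.51, 8.36 and 8.43 in control arrays, the largest rise of the list (1.63, SE 0.07, 3.09-fold, limma adjusted p = 1.46e-07). The poly-A centring left 24 of them higher and 1 lower (median 0.29). Ccna2, counted with the cyclins, is also in this list. Of 5 measured cell death targets of E2f1, 3 rose (Pmaip1 by 1.27, Bcl2l11 by 1.06 and Apaf1 by 0.31) and 2 did not pass, Bbc3 (0.21, adjusted p = 0.115) and Trp73 (-0.09, adjusted p = 0.499). The share called was 60%, against 44.1% of all genes. The median of these 5 targets was 0.31, and either spike-in centring left 2 higher and 1 lower.

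**Figure D4:**
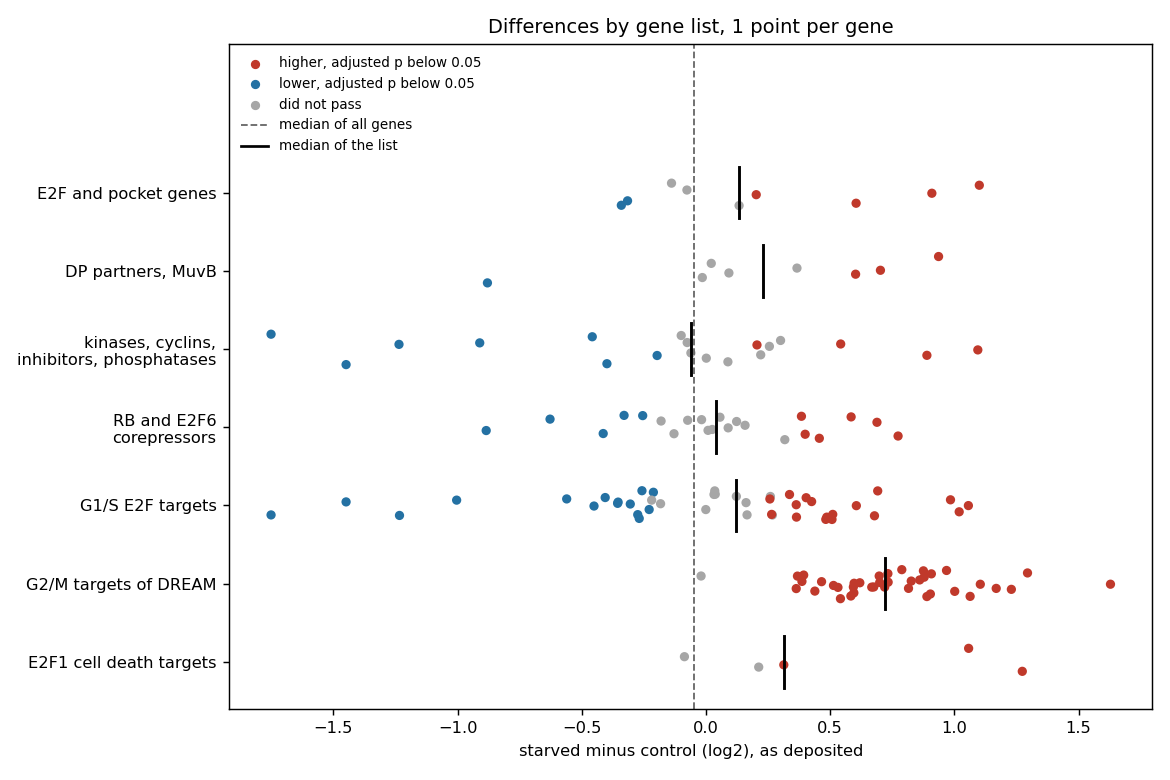
Difference starved minus control on the log2 scale (horizontal axis) of each gene, 1 point per gene, for the family and its partner and target lists (vertical axis), with the median of each list as a bar and of all genes as a dashed line. All 39 G2/M targets lie right of the dashed line, while the G1/S targets spread to both sides.

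Markers were read in the same arrays to check the labelled cell type. Of 16 measured fibroblast markers most were bright, with Col1a2 at 14.16 in starved and 14.03 in control arrays, but Thy1 was dim at 4.60 in starved and 4.99 in control arrays. Of these markers 11 rose, 3 fell (Thy1, Twist2 and Pdgfrb) and 2 did not pass (Col1a2 and Lum). Pdgfra is counted as risen from its brighter probe set (0.34), while its dimmer one was lower (-0.40, adjusted p = 0.00651 over all probe sets). Col1a2 is counted as not passed from its brighter probe set, while its dimmer one was higher (0.36, limma adjusted p = 0.00222 over all probe sets). The sum of the log2 signals of the 16 markers was 179.32 to 180.00 in starved arrays, against 175.73 to 177.12 in control arrays. The 20 markers of blood, epithelial, endothelial, muscle, neuronal and pluripotent cells had group means of at most 6.59 in starved and 6.74 in control arrays. Their log2 signals summed to 89.31 to 90.82 in starved arrays and 89.19 to 89.70 in control arrays. Of these 3 rose (Nanog, Cdh1 and Cd68), 2 fell (Pecam1 and Kdr) and 15 did not pass. Arrays give no true zero, and the part of these markers in the results above was not tested. Arrays of 1 group correlated at 0.9972 or more over all genes.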

How the data were processed

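Per the labels, total RNA of each sample was turned into biotin-labelled cRNA for 1-colour arrays. The authors deposited log2 values per probe set and array, made with affy and RMA per the submitters' processing notes with versions not given in the sources used here. This method equalises the signal distribution of the arrays, so a change in total RNA per cell is removed. Gene names came from the platform annotation. Of 22690 probe sets, 64 controls, 691 with several genes and 1555 with none listed were left out, and the brightest probe set stood for a gene. Starved was compared with control by limma 3.58.1 in R 4.3.3 (two-sided, no covariate, no filter), also on each probe set, with steps tested on simulated data. Python 3.11.15 drew the figures. Depth does not apply to arrays, whose number limits the precision.

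Named were all members, up to 2 risen and 2 fallen genes per list with the smallest adjusted p, the extremes of each list, fixed partners (Tfdp1, Tfdp2, Mybl2, Foxm1, Ccnd1, Ccne1, Ccne2, Cdkn1a, Cdkn1b) and the 3 genes most like the top member. Tfdp2 and further listed genes were not analysed here. Lin9, Mybl1, Rbbp4, Dyrk1a, Ccnd3, Cdk4, Cdkn1c, Cdkn2d, Ppp1cc, Sin3a, Rnf2, Epc1, Mga, Hdac1, Smarca2, Yaf2, Apaf1, Bbc3 and the markers were named after their values were seen. The members and lists were chosen with earlier results of these data known. Alternatives were other probe set choices, a filter on dim genes, quantile normalization, centrings, eBayes settings, array weights, a replicate block, single arrays left out and stricter thresholds.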

Additional observations from a re-analysis of the deposited data

How the results depend on the processing

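Differences of the 9 genes kept their direction in every alternative except those of E2f1 with centring on the hybridization (-0.055) or poly-A spike-ins (-0.29), E2f8 with the poly-A spike-ins (-0.22) and E2f5 with the mean of its probe sets (0.062) or without probe sets that can bind several transcripts (0.20). Member genes higher numbered 2 with the poly-A spike-ins and 1 at a log2 difference of at least 1. Member genes lower numbered 1 without the dimmest 40% of genes, where E2f3 and E2f4 were not tested. They numbered 1 at an adjusted p below 0.01, 0 at a difference of at least 1, 4 with the hybridization and 5 with the poly-A spike-ins. The poly-A spike-ins gave 4 partners lower, 2 cyclins, kinases and inhibitors higher and 13 lower, 2 corepressors higher and 15 lower, 5 G1/S targets higher and 24 lower, 24 G2/M targets higher and 1 lower, 1 cell death target lower, and 860 of all genes higher and 9321 lower. The hybridization spike-ins gave 8 corepressors lower, 1 cell death target lower, and 1673 of all genes higher and 6102 lower. A difference of at least 1 left 0 partners higher and 0 lower, 1 of the cyclin and kinase list higher and 3 lower, 0 corepressors higher and 0 lower, 2 G1/S targets higher and 4 lower, 7 G2/M targets higher, and 327 of all genes higher and 216 lower. An adjusted p below 0.01 left 3 corepressors and 1782 of all genes lower. Counted by probe set, 6 partners were higher, 16 of the cyclin and kinase list lower, 27 G1/S targets higher and 26 lower, 59 G2/M targets and 7 cell death targets higher, and 4156 of all probe sets higher and 4183 lower, since several probe sets read 1 gene. The 6 partner probe sets include a dimmer one of Dyrk1a, a gene not called from its brightest probe set. Array weights gave 7 of the cyclin and kinase list higher. Leaving out 1 array gave 3 to 7 of that list higher and 3 to 5 corepressors lower. The cause of these changes was not tested beyond what the settings themselves change.

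Same-numbered arrays did not deviate together over all genes (correlations of deviations -0.005, -0.022 and 0.002). These values cannot show whether same-numbered samples were handled as pairs, which the labels do not state. With a replicate block 3 member genes were higher and 2 lower, and E2f8 lost its call (adjusted p = 0.0747).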

Other observations

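Among the markers of other cell types, Nanog, a factor of pluripotent cells, rose. Its probe set was at 6.34, 6.26 and 6.36 in starved arrays, against 4.86, 4.89 and 4.69 in control arrays (difference 1.51, SE 0.08, limma adjusted p = 5.25e-07). The mean signal of Nanog stood at percentile 34.9 of all genes, toward the dim end. Pou5f1, another pluripotency factor, was at 3.66, 3.70 and 3.34 in starved arrays, against 3.79, 3.51 and 3.80 in control arrays, and did not pass (-0.14, adjusted p = 0.362). The epithelial cadherin Cdh1 was at 4.25, 4.32 and 4.50 in starved arrays, against 3.60, 3.48 and 3.26 in control arrays, and rose by 0.91 (limma adjusted p = 6.14e-05) at a dim level.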
